A study of Mus musculus with 6 samples.

Results

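The transglutaminases measured here were Tgm1, Tgm2, Tgm3 and Tgm5, taken as every probe set that the array's annotation assigns to 1 of these 4 genes. They held 10 probe sets of the 34945 that name a single gene, and 4 of the 18193 genes on the array. The cells were epidermal basal cells, sorted as α6-integrin-positive and propidium-iodide-negative from trypsinized skin of female C57BL/6 mice 10 weeks old. They came from the ventral skin of pregnant mice at 16 days post coitum (16 dpc), from the dorsal skin of pregnant mice at 16 dpc and from the ventral skin of virgin mice. Each group had 2 arrays, and no transgene or treatment is named for any of them. The labels do not say how many mice stand behind an array, so the p-values measure only the spread between these arrays, which may be technical. The question was what differs in the basal cells of the expanding abdominal skin of pregnancy, first against the same site without pregnancy and then against the back skin of the same stage.

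Transglutaminases are calcium-dependent enzymes that join a glutamine of one protein to a lysine of another by a bond that proteases do not cut. In the epidermis they build the cornified envelope, the protein shell that takes the place of the plasma membrane as a keratinocyte leaves the granular layer. Tgm1 is held at the membrane and attaches envelope proteins and lipids there, Tgm3 is a soluble zymogen that proteolysis activates and that also works in the hair follicle, and Tgm5 acts in the upper layers. Tgm2, the tissue transglutaminase, is found in many cell types and outside the cell, where it binds fibronectin and integrins.

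The 250 bases before the annotated start are shown for Tgm3, the gene on which the comparisons turn, and for Tgm1, which had another pattern over the groups. Both were read 5′ to 3′ on the gene's strand from RefSeq (GRCm38.p6), at chr2:130012090-130012339 on the plus strand for Tgm3 and chr14:55713493-55713742 on the minus strand for Tgm1. Capitals mark the matches found to the motifs searched.
Tgm3: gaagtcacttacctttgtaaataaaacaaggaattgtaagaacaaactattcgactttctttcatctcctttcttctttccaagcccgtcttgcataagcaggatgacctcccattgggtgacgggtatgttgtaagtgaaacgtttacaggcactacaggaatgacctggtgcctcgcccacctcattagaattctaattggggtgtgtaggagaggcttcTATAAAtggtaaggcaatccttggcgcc
Tgm1: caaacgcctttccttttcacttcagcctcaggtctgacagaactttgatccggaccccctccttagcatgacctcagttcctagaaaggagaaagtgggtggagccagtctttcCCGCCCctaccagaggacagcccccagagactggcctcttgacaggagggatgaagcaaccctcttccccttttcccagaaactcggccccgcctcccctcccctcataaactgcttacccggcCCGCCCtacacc
The Tgm3 window held 1 TATA box (TATAAA), 28 bases before the start, a motif that 12.37% of 32851 such windows hold. The Tgm1 window held the Sp1 GC box (GGGCGG) on the opposite strand, where it reads CCGCCC, at 136 and 12 bases before the start, against 32.74% of windows with at least 1. The AP-1 motif (TGANTCA, in 6.749% of windows) and the Grainyhead motif (AACCGGTT, in 0.1157%) were in neither window on either strand. A window was given for 3 of the 4 genes, and that of Tgm5 and a second start of Tgm1 held none of these motifs.

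Of the 10 probe sets, 7 were called present by the array software on both arrays of at least 1 group. These were the 1 probe set of Tgm1, 4 of the 6 of Tgm2 and both of Tgm3. The probe set of Tgm5 did not reach this and was not tested. Signals are linear intensities that the authors scaled to a common trimmed mean, and they set arrays, not genes, side by side, since each probe set has its own response. In bulk samples such as these, fewer cells of a type and less RNA per cell cannot be told apart.

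Between 47.2% and 53.3% of the 45101 probe sets were called present on an array. The GAPDH control's ratio of 3′ to 5′ signal, which is higher where RNA is more degraded or was copied less far, was 1.61 and 2.86 on the 16 dpc ventral arrays, 1.89 and 2.83 on the 16 dpc dorsal arrays, and 2.50 and 1.53 on the virgin ventral arrays, each in the order of replicate 1 and replicate 2. Arrays with the same replicate number also share a prefix in their column headers. Replicate 1 of the 16 dpc ventral arrays had a summed signal of 11 mammary epithelium markers of 9043, against 485 to 1474 on the other 5 arrays. All 11 basal keratinocyte markers, among them Itga6, whose product the sort rests on, were present on all 6 arrays, and their median log2 difference was 0.03 in 16 dpc ventral over virgin ventral cells and -0.08 over 16 dpc dorsal cells. All 10 spinous keratinocyte markers were present on all 6 arrays too, with a summed signal of 138204 to 169043 per array. Their median log2 differences were -0.22 and -0.08. The part of cells above the basal layer in the signals was not tested. In the fit described in the next paragraph, 22 of 10993 genes (0.2%) differed between 16 dpc ventral and virgin ventral cells, 9 (0.0819%) between 16 dpc ventral and 16 dpc dorsal cells, and 0 (0%) between 16 dpc dorsal and virgin ventral cells. At an unadjusted p under 0.05 the shares were 11.6%, 5.09% and 7.27% of genes.

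Tgm3 was higher in the ventral basal cells of pregnant mice than in both other groups. Its probe set 1440150_at read 5647 and 6036 on the 16 dpc ventral arrays, 1464 and 964 on the 16 dpc dorsal arrays, and 2036 and 1940 on the virgin ventral arrays, all called present. Both 16 dpc ventral arrays lay above the other 4, and none of the 3 groups overlapped. Groups without overlap in the direction of Tgm3 were found for 23.8% of genes over virgin ventral cells and 13.1% over 16 dpc dorsal cells. The group means were 5842 ± 275 at 16 dpc ventral, 1214 ± 353 at 16 dpc dorsal and 1988 ± 67.6 in virgin ventral cells (SD, n = 2 each). In a limma fit over all 6 arrays, with 1 probe set per gene and Benjamini-Hochberg adjustment over the 10993 detected genes, the log2 change of Tgm3 was 1.55 ± 0.20 (SE) over virgin ventral cells. That is 2.94-fold, with a 95% interval of 2.14 to 4.04 and an adjusted p of 0.0317. Over 16 dpc dorsal cells the log2 change was 2.30, or 4.91-fold with an interval of 3.58 to 6.76, and the limma adjusted p was 0.0152, the smallest p of all genes in that comparison.

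Among the 3 tested transglutaminases Tgm3 was the 1 called higher in either comparison, where 0.136% of all genes were called higher over virgin ventral cells and 0.0455% over 16 dpc dorsal cells. None of the 3 was called lower, where 0.0637% and 0.0364% of genes were. Tgm3 was also the 1 gene of 10993, or 0.0091%, called higher than both. The study picked Tgm3 from these arrays, so its direction here is not independent evidence. The 2 comparisons share the 16 dpc ventral arrays. Within the arrays of replicate 1 Tgm3 was 2.77-fold higher in 16 dpc ventral than in virgin ventral cells and 3.86-fold higher than in 16 dpc dorsal cells, and within those of replicate 2 it was 3.11-fold and 6.26-fold higher.

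The other Tgm3 probe set, 1421355_at, gave the same order of groups. It read 667 and 780 on the 16 dpc ventral arrays, 246 and 209 on the 16 dpc dorsal arrays, and 312 and 311 on the virgin ventral arrays. Its log2 differences were smaller, 1.21 over virgin ventral cells and 1.67 over 16 dpc dorsal cells, and over the 6 arrays its log2 signal correlated with that of 1440150_at at r = 0.993, a description of 2 probe sets on the same RNA. When each of the 23017 detected probe sets was tested on its own, neither probe set passed: the limma adjusted p over virgin ventral cells was 0.206 for 1440150_at and 0.315 for 1421355_at, and over 16 dpc dorsal cells 0.136 and 0.210. In that fit 0 probe sets were called higher over virgin ventral cells and 1 (0.00434%) over 16 dpc dorsal cells, a probe set of Tbx3, named here after its value was seen.

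The call on Tgm3 over virgin ventral cells also did not hold with 1 array fewer in either of the groups compared, at a limma adjusted p of 0.0968 without 16 dpc ventral replicate 1, 0.178 without 16 dpc ventral replicate 2, 0.101 without virgin ventral replicate 1 and 0.223 without virgin ventral replicate 2. Over 16 dpc dorsal cells it was lost without 16 dpc ventral replicate 1 (0.0664), virgin ventral replicate 1 (0.0584) and virgin ventral replicate 2 (0.0618). The log2 change itself stayed between 1.51 and 1.60 over virgin ventral cells and between 1.996 and 2.598 over 16 dpc dorsal cells in all such fits.

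Between the lower groups, Tgm3 was lower in 16 dpc dorsal than in virgin ventral cells by value, with a log2 difference of -0.74 (95% interval -1.20 to -0.28). That difference did not pass the test over all genes (limma, unadjusted p = 0.00537, adjusted p = 0.515). Groups without overlap in this direction were found for 13.6% of genes. The order of the Tgm3 level was thus 16 dpc ventral, virgin ventral and 16 dpc dorsal, with the difference between the last pair not past the threshold. Site and pregnancy both differ between that pair, and cells of virgin dorsal skin were not analysed here.

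**Figure D1:**
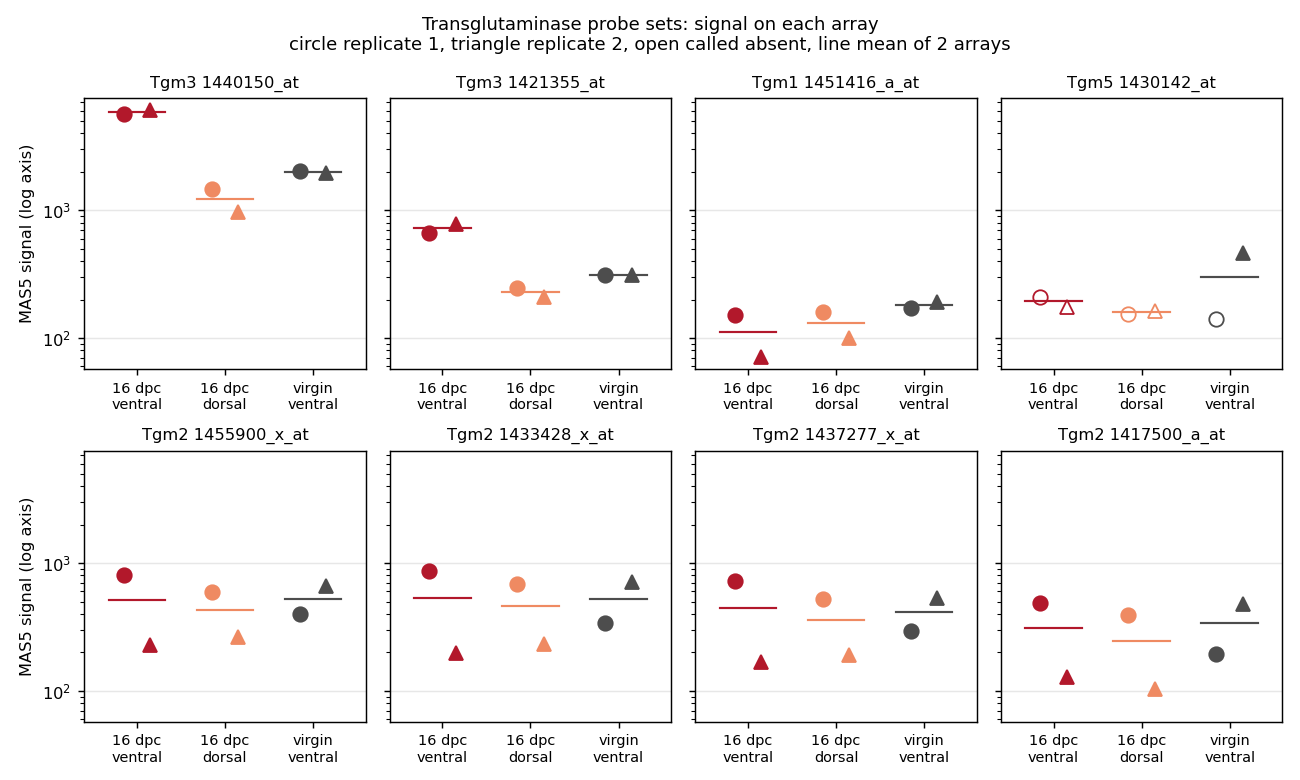
MAS5 signal on a log axis for 8 of the 10 transglutaminase probe sets, by group on the horizontal axis, with circles for replicate 1, triangles for replicate 2, open symbols for arrays called absent and a line at the mean of 2 arrays. Both Tgm3 probe sets are highest on the 2 arrays of 16 dpc ventral cells, while the 4 Tgm2 probe sets are low on replicate 2 of both 16 dpc groups and on replicate 1 of the virgin ventral group.

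Markers of other cells were set beside Tgm3 as sums and one by one. Of 12 markers of the hair inner root sheath and medulla, where Tgm3 also acts, 5 were absent on all arrays (Crym, Krt26, Krt71, Krt72 and Mlph). Their summed signal was 11048 and 10738 in 16 dpc ventral cells, 13047 and 9815 in 16 dpc dorsal cells, and 14768 and 13655 in virgin ventral cells, but most of it came from Gata3, which the epidermis also expresses. Of the 4 markers that were detected, limma called 0 in either comparison, with 1 at an unadjusted p under 0.05 over virgin ventral cells and 0 over 16 dpc dorsal cells. Shares over all genes were 0.2% and 0.0819% called, and 11.6% and 5.09% at that unadjusted p. Over virgin ventral cells all 4 were lower by value, with a median log2 difference of -0.60. Over 16 dpc dorsal cells 3 of the 4 were higher by value, as Tgm3 was, with a median of 0.38 and log2 differences of 1.03 for Krt73, 0.46 for Krt25 and 0.30 for Tchh, against -0.07 for Gata3. Krt25 read 107 and 22.9 in 16 dpc ventral cells and 43.6 and 29.5 in 16 dpc dorsal cells, which overlap. Tchh read 323 and 382 against 357 and 227, which overlap too. Krt73, called present on 3 arrays, read 45.6 and 23.8 against 15.0 and 17.4.

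Of 9 granular keratinocyte markers 1 was absent on all arrays, and their sum was 3937 and 3979 in 16 dpc ventral cells, 4888 and 3425 in 16 dpc dorsal cells, and 7304 and 9588 in virgin ventral cells. Of the 8 detected, limma called 0 in either comparison. Over virgin ventral cells 7 were lower by value, at a median log2 difference of -0.84. At an unadjusted p under 0.05 there were 6, where 11.6% of all genes were. Over 16 dpc dorsal cells the median was -0.02, with 0 at that p, where 5.09% of all genes were. The sum of 11 mammary epithelium markers, of which Lalba and Cited1 were absent on all arrays, was 9043 and 1230 in 16 dpc ventral cells, 485 and 748 in 16 dpc dorsal cells, and 885 and 1474 in virgin ventral cells. Its parts differed. The milk casein gene Csn2 read 6185 and 699 in 16 dpc ventral cells, 204 and 348 in 16 dpc dorsal cells, and 172 and 2.29 in virgin ventral cells. Csn1s1, another casein gene, read 1031 and 186 in 16 dpc ventral cells, 94.2 and 125 in 16 dpc dorsal cells, and 64.6 and 26.5 in virgin ventral cells. Both were highest on the 2 arrays of 16 dpc ventral cells, as was Tgm3. So was Glycam1, at 640 and 51.0, though called present on 1 array. Csn3, also a casein gene, was not, at 646 and 112 against 79.4 and 129 in virgin ventral cells. Nor was Wap, at 151 and 91.9 against 62.7 and 130 in 16 dpc dorsal cells. The luminal keratin genes were lower than in virgin ventral cells. Krt8 read 104 and 9.98 against 220 and 474, Krt18 94.3 and 47.6 against 161 and 413, and Krt19 46.2 and 9.71 against 110 and 282. Over 16 dpc dorsal cells 5 of the 6 detected mammary markers were higher by value, with a median log2 difference of 2.23. There were 4 at a limma unadjusted p under 0.05, where 5.09% of all genes were. Over virgin ventral cells 3 were higher and 3 lower by value, with a median of -0.27. At that p there were 5, where 11.6% of all genes were. Limma called 0 of the 6 in either comparison. Shares of all genes called were 0.2% over virgin ventral cells and 0.0819% over 16 dpc dorsal cells. On the 2 arrays of 16 dpc ventral cells, where Csn2 read 6185 and 699, Tgm3 read 5647 and 6036. The part of these cells in the Tgm3 signal was not tested.

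Genes whose profile over the 6 arrays was most like that of Tgm3 were found by the root mean square difference of log2 signals, each centred on its own mean. The 5 nearest were Igfals at 0.203, Krt2 at 0.271, Btn1a1 at 0.328, Gadl1 at 0.413 and Casp12 at 0.424. Krt2, a keratin of the upper epidermal layers, read 1899 and 1252 in 16 dpc ventral cells, 306 and 207 in 16 dpc dorsal cells, and 386 and 484 in virgin ventral cells. Gadl1, a decarboxylase of acidic amino acids, read 798 and 887 in 16 dpc ventral cells, 192 and 134 in 16 dpc dorsal cells, and 602 and 384 in virgin ventral cells, so its virgin ventral level lay nearer to the 16 dpc ventral one than that of Tgm3 did. Igfals (a subunit of the circulating IGF complex), Btn1a1 (a protein of milk fat globules) and Casp12 (a caspase of the endoplasmic reticulum) were read at lower signals, from 7.07 to 332 over the 6 arrays. Krt2 and Gadl1 were called higher over 16 dpc dorsal cells (limma adjusted p = 0.0188 and 0.0230), and none of the 5 passed over virgin ventral cells, where Krt2 came nearest at 0.0517. Of all genes 0.0455% were called higher over 16 dpc dorsal cells. The 5 were chosen on these same arrays for likeness to Tgm3, so their direction and these calls are not separate evidence. The study picked Krt2 from these arrays as well, and reported it higher by qPCR of skin tissue as it did Tgm3.

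**Figure D2:**
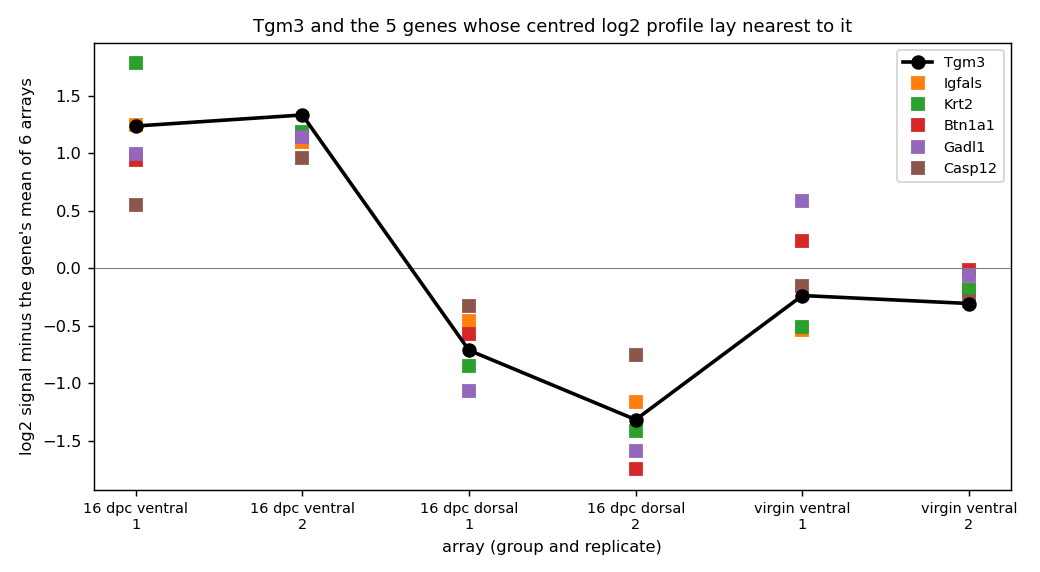
Centred log2 signal of Tgm3 (black line) and of the 5 genes nearest to it, over the 6 arrays in order of group and replicate. All 6 profiles are highest on the 2 arrays of 16 dpc ventral cells, as the choice of genes by likeness to Tgm3 favours.

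Tgm1 showed no difference past the test. Its probe set 1451416_a_at read 150 and 71.5 in 16 dpc ventral cells, 160 and 101 in 16 dpc dorsal cells, and 173 and 191 in virgin ventral cells, and was called present on all 6 arrays. Both virgin ventral arrays lay above the 4 arrays of pregnant mice. The 16 dpc ventral arrays did not overlap the virgin ventral ones, as was so for 19.8% of all genes in this direction, while the 2 groups of pregnant mice overlapped. The log2 difference was -0.81 over virgin ventral cells (95% interval -1.75 to 0.14, limma adjusted p = 0.492) and -0.29 over 16 dpc dorsal cells (limma adjusted p = 0.9999), so 0.571-fold over virgin ventral cells with an interval of 0.297 to 1.10. Between 16 dpc dorsal and virgin ventral cells it was -0.52 (limma adjusted p = 0.759).

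The size of the Tgm1 difference lay mostly on the arrays of replicate 2. Within replicate 1 Tgm1 was 0.870-fold in 16 dpc ventral over virgin ventral cells, and within replicate 2 it was 0.374-fold. The 2 lowest Tgm1 signals, 71.5 and 101, were on the arrays with the highest GAPDH ratios, 2.86 and 2.83, and the part of that ratio in the result was not tested. The direction over 16 dpc dorsal cells turned without 16 dpc ventral replicate 2 (log2 difference 0.24) and without 16 dpc dorsal replicate 1 (0.041).

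Tgm2 varied between arrays of a group by more than between groups. Its probe set of highest signal, 1455900_x_at, read 805 and 228 in 16 dpc ventral cells, 597 and 265 in 16 dpc dorsal cells, and 396 and 656 in virgin ventral cells. Replicate 1 was the higher array in both groups of pregnant mice and the lower one in virgin mice, and all 3 groups overlapped. The log2 difference was -0.25 over virgin ventral cells (95% interval -1.56 to 1.06, limma adjusted p = 0.911), 0.11 over 16 dpc dorsal cells (limma adjusted p = 0.9999) and -0.36 for 16 dpc dorsal over virgin ventral cells (limma adjusted p = 0.877). The interval over virgin ventral cells leaves room for a change of more than 2-fold either way.

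The within-replicate differences of Tgm2 were opposite. In 16 dpc ventral over virgin ventral cells Tgm2 was 2.03-fold within replicate 1 and 0.348-fold within replicate 2. Of 10993 genes, 29 (0.264%) were over 2-fold higher in the first and over 2-fold lower in the second. The other detected Tgm2 probe sets, 1433428_x_at, 1437277_x_at and 1417500_a_at, gave log2 differences of 1.35, 1.31 and 1.33 within replicate 1 and of -1.83, -1.67 and -1.91 within replicate 2. The 4 detected probe sets correlated with each other at r from 0.973 to 0.998 over the 6 arrays, and the suffix of 3 of them marks probes that may bind other transcripts too. Against 16 dpc dorsal cells the difference was 1.35-fold within replicate 1 and 0.863-fold within replicate 2.

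The Tgm2 signal moved with the GAPDH ratio of the array. On the arrays with ratios of 1.53, 1.61 and 1.89 it was between 597 and 805, and on those with ratios of 2.50, 2.83 and 2.86 between 228 and 396, without overlap and with 1 array of every group on each side. All 4 detected Tgm2 probe sets, which read the same RNA, were split in this way. So were 1153 of 23017 detected probe sets (5.01%) and 426 of 10993 genes (3.88%), whereas Tgm1 and both Tgm3 probe sets were not. The summed signal of 10 markers of the hair follicle bulge and outer root sheath moved with Tgm2 too, at 19744 and 7791 in 16 dpc ventral cells, 20551 and 12700 in 16 dpc dorsal cells, and 15197 and 29165 in virgin ventral cells, most of it from Krt79 and Krt17, with Fgf18 and Krt75 absent on all arrays. The sum of 5 sebaceous gland markers, none absent on all arrays, was 16026 and 10231 in 16 dpc ventral cells, 14570 and 8357 in 16 dpc dorsal cells, and 13118 and 13344 in virgin ventral cells. The part of RNA quality and of these cells in the Tgm2 signal was not tested.

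**Figure D3:**
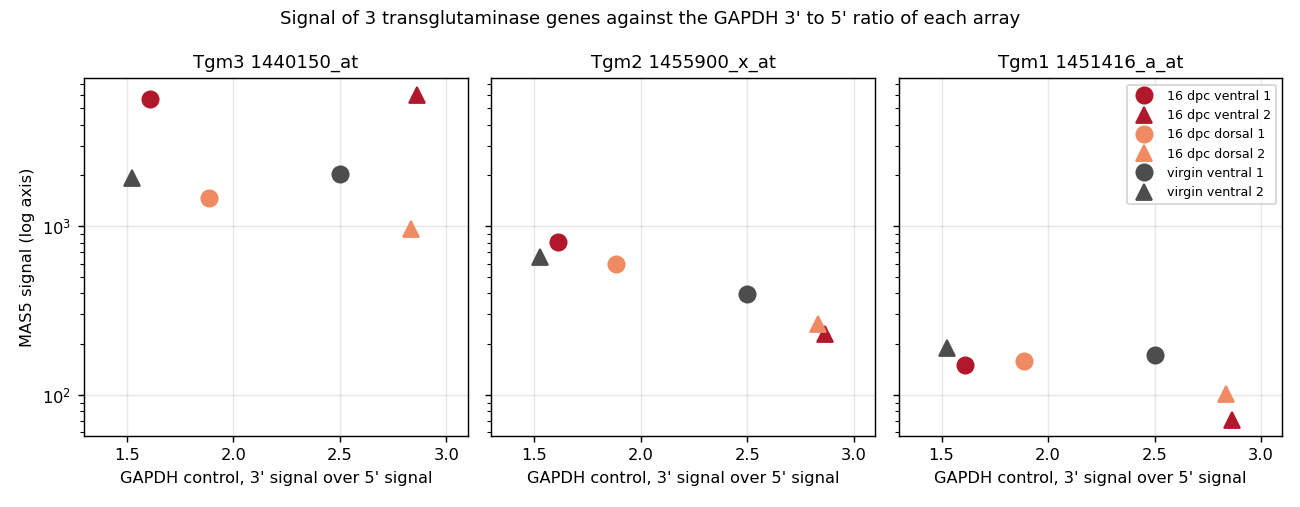
MAS5 signal on a log axis of Tgm3, Tgm2 and Tgm1 against the GAPDH control's 3′ over 5′ ratio, with 1 point per array, coloured by group and shaped by replicate. Tgm2 is lower on the 3 arrays with ratios of 2.50 and more than on the other 3, while Tgm3 is highest on both 16 dpc ventral arrays, whose ratios are 1.61 and 2.86.

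The 2 undetected Tgm2 probe sets gave no usable level. Probe set 1426004_a_at was called present on 1 of 6 arrays, at signals from 64.9 to 122, and 1438942_x_at was absent on all 6, at 1.08 to 42.2. The gene whose profile was nearest to that of Tgm2, at a root mean square difference of 0.186, was the forkhead factor gene Foxc1, which read 546 and 180 in 16 dpc ventral cells, 496 and 185 in 16 dpc dorsal cells, and 398 and 537 in virgin ventral cells. For Tgm1 it was Sema3e, a secreted guidance protein, at 0.0953. These likenesses were computed after the values of Tgm1 and Tgm2 were seen, since their group means ranged over less than 1 on the log2 scale.

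Tgm5 was called present on 1 of 6 arrays. Its probe set 1430142_at read 211 and 176 in 16 dpc ventral cells and 155 and 163 in 16 dpc dorsal cells, all called absent. In virgin ventral cells it read 141, called absent, and 460, called present. No fold change was taken, since both groups of pregnant mice have only a bound. The array with the present call, virgin ventral replicate 2, also had the highest sum of the 9 granular keratinocyte markers (9588, against 3425 to 7304 on the other 5) and of the 10 bulge and outer root sheath markers (29165, against 7791 to 20551), and their part in the Tgm5 signal was not tested.

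**Figure D4:**
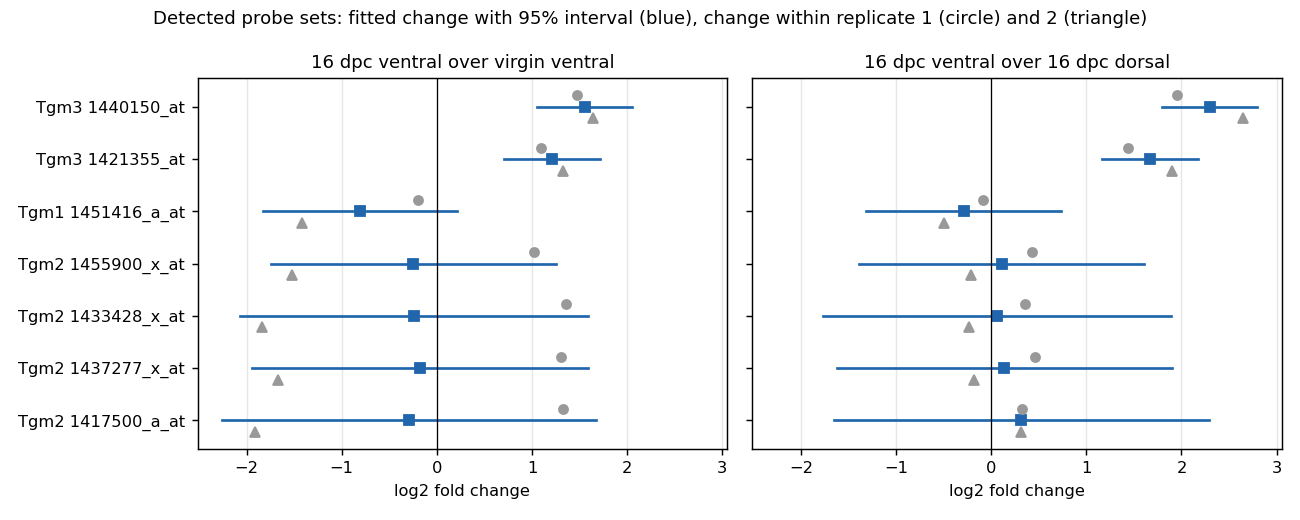
Log2 fold change on the horizontal axis of the 7 detected transglutaminase probe sets in 16 dpc ventral over virgin ventral cells and over 16 dpc dorsal cells, with blue squares and 95% intervals from the fit over all detected probe sets, grey circles for the difference within replicate 1 and grey triangles within replicate 2. Both replicates lie above 0 for the 2 Tgm3 probe sets and on opposite sides of 0 over virgin ventral cells for the 4 Tgm2 probe sets.

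The rest of the transglutaminase superfamily was largely undetected. Tgm4, Tgm6, F13b (the carrier subunit of coagulation factor XIII) and Epb42 (a red cell membrane protein that has lost the enzyme activity) were absent on all 6 arrays, and no probe set was annotated to Tgm7. Epb42 and Tgm7 are the genes on either side of Tgm5 in RefSeq. F13a1, the catalytic factor XIII subunit that macrophages also make, was present on 5 arrays, with means of 43.0 ± 5.96 in 16 dpc ventral cells, 85.1 ± 40.9 in 16 dpc dorsal cells and 35.0 ± 2.26 in virgin ventral cells (SD, n = 2 each). Its log2 difference was 0.29 over virgin ventral cells and -0.90 over 16 dpc dorsal cells, with neither past the test (limma adjusted p = 0.866 and 0.9999). For 16 dpc dorsal over virgin ventral cells it was 1.19, not called but at a limma unadjusted p under 0.05, as were 7.27% of all genes. The 10 detected macrophage and Langerhans cell markers had medians of 0.69, -0.19 and 0.995 in these 3 comparisons. The part of such cells in the F13a1 signal was not tested.

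The substrates of the envelope did not move as a group with Tgm3. Of 60 listed cornified envelope substrates 45 were on the array and 31 detected. Over virgin ventral cells limma called 0 of the 31 in either direction, with 6 at an unadjusted p under 0.05, and their median log2 difference was -0.15, against 0.02 over all genes. Over 16 dpc dorsal cells 1 was called higher and 0 lower, with 5 at an unadjusted p under 0.05 and a median of -0.17 against -0.03. By value 22 of the 31 were lower over virgin ventral cells and 9 higher. Over 16 dpc dorsal cells 24 were lower by value and 7 higher. Of all genes 0.2% were called over virgin ventral cells and 0.0819% over 16 dpc dorsal cells, so few or no calls fall to a short list. At an unadjusted p under 0.05 were 11.6% of all genes over virgin ventral cells and 5.09% over 16 dpc dorsal cells. The 1 substrate called was Krt2, with a log2 change of 2.62 over 16 dpc dorsal cells and, short of the threshold, 1.83 over virgin ventral cells. Lor, the main envelope protein loricrin, read 1026 and 1487 in 16 dpc ventral cells, 1264 and 1598 in 16 dpc dorsal cells, and 2338 and 1945 in virgin ventral cells (log2 difference over virgin ventral cells -0.79, limma adjusted p = 0.248). Lce1d, a late cornified envelope gene, read 151 and 302 in 16 dpc ventral cells, 206 and 241 in 16 dpc dorsal cells, and 80.5 and 94.4 in virgin ventral cells (1.29, limma adjusted p = 0.248).

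The enzymes that make the lipid layer bound to the envelope also gave no calls. Of 14 detected genes of 16 listed, limma called 0 in either comparison. At an unadjusted p under 0.05 there was 1 over virgin ventral cells and 0 over 16 dpc dorsal cells. Shares over all genes were 0.2% and 0.0819% called, and 11.6% and 5.09% at that unadjusted p. The median log2 differences of the 14 were -0.25 and -0.04. The 3 of smallest p were Cyp4f39, a fatty acid hydroxylase, at -0.71 over virgin ventral cells, Pnpla1, which makes acylceramide, at -0.52, and its partner Abhd5 at -0.37 (limma adjusted p = 0.256, 0.442 and 0.466).

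Among the proteases and inhibitors that act on transglutaminases or in the same layers, 15 of 16 were detected and limma called 0 in either comparison. At an unadjusted p under 0.05 there were 5 over virgin ventral cells and 1 over 16 dpc dorsal cells. Shares over all genes were 0.2% and 0.0819% called, and 11.6% and 5.09% at that unadjusted p. The medians of the 15 were -0.23 and 0.01. Klk7, a protease of desquamation, read 657 and 452 in 16 dpc ventral cells, 863 and 297 in 16 dpc dorsal cells, and 1928 and 3330 in virgin ventral cells (log2 difference -2.22 over virgin ventral cells, limma adjusted p = 0.138). Klk8 read 1342 and 1512 in 16 dpc ventral cells, 957 and 609 in 16 dpc dorsal cells, and 3270 and 2857 in virgin ventral cells (-1.10, limma adjusted p = 0.124). Klk5 stood at -1.05 (limma adjusted p = 0.230). Both groups of pregnant mice lay below the virgin ventral arrays for Klk7 and Klk8, which were named for their small p. Against virgin ventral cells, 19.8% of genes were without overlap in this direction in 16 dpc ventral cells and 13.6% in 16 dpc dorsal cells. Ctsl, cathepsin L, which can activate the Tgm3 zymogen, averaged 4916 in 16 dpc ventral cells, 4261 in 16 dpc dorsal cells and 5282 in virgin ventral cells, and was chosen for mention for this role.

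Regulators of terminal differentiation gave no calls either. Of 18 detected of 20 listed, limma called 0 in either comparison. At an unadjusted p under 0.05 there were 2 over virgin ventral cells and 0 over 16 dpc dorsal cells. Shares over all genes were 0.2% and 0.0819% called, and 11.6% and 5.09% at that unadjusted p. The medians of the 18 were -0.22 and -0.07. The 3 of smallest p, all transcription factor genes, were Zfp750 at -0.66 over virgin ventral cells, Cebpa at -0.71 and Prdm1 at -0.93 (limma adjusted p = 0.265, 0.380 and 0.438).

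Of the partners that Tgm2 has at the cell surface and in the matrix, 11 of 14 were detected and limma called 0 in either comparison. There were 5 at an unadjusted p under 0.05 over virgin ventral cells and 3 over 16 dpc dorsal cells. Shares over all genes were 0.2% and 0.0819% called, and 11.6% and 5.09% at that unadjusted p. The medians of the 11 were 0.01 and 0.25. Pdia3, a disulfide isomerase, read 6444 and 5490 in 16 dpc ventral cells, 4691 and 5309 in 16 dpc dorsal cells, and 3319 and 3204 in virgin ventral cells (log2 difference 0.87 over virgin ventral cells, limma adjusted p = 0.0936). Vim, vimentin, stood at 1.07 and Itgb1, the integrin β1 subunit, at 0.73 over virgin ventral cells (limma adjusted p = 0.135 and 0.256). When both 16 dpc arrays of replicate 2 were left out, which puts the whole estimate of spread on the virgin ventral pair, 6 of the 90 genes tested from these lists were called over virgin ventral cells, Krt2, Pdia3 and Vim higher and Lor, Klk7 and Klk8 lower. In that fit 115 of all 10993 genes (1.05%) were called, against 22 in the fit with all arrays.

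**Figure D5:**
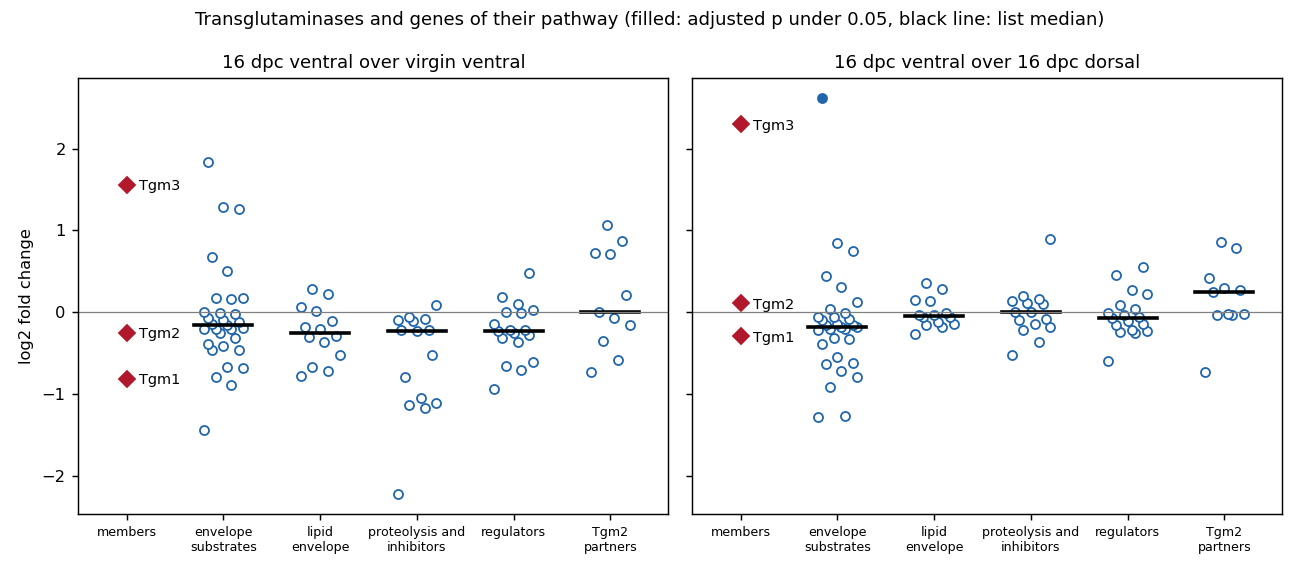
Log2 fold change in 16 dpc ventral over virgin ventral cells and over 16 dpc dorsal cells of the 3 tested transglutaminases (red diamonds) and of the detected genes of 5 related lists (circles, filled where the adjusted p is under 0.05), with a black line at each list's median. Tgm3 lies at 1.55 and 2.30, the list medians between -0.25 and 0.25, and the 1 filled circle is Krt2.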

How the data were processed

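RNA of sorted α6-integrin-positive epidermal cells was measured on Affymetrix 3′ arrays for mouse (45101 probe sets, 64 of them controls), 2 for each of 3 groups, which were taken from the sample labels. The deposited files give a signal intensity on a linear scale and a detection call per probe set. The submitters' processing notes name Affymetrix Expression Console, version 1. The authors' signal behaved as MAS5 output, with a trimmed mean of 500.0 on each array, so a change in the amount of RNA in a cell would not appear in it. No genome build was given.

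The log2 was taken after raising signals below 1 to 1. The annotation given with the arrays names 1 gene for 34945 probe sets, several for 932 and none for 9160. A gene was represented by its probe set of highest mean log2 signal, and the 10993 genes with present calls throughout at least 1 group were tested with limma 3.58.1 in R 4.3.3 (lmFit, then eBayes with trend = TRUE) over all 6 arrays, two-sided, with Benjamini-Hochberg adjustment and a threshold of 0.05. The fit had 3 residual degrees of freedom and a prior of 5.79. The lowest signal called present was 6.34 to 11.3 per array, and the number of arrays limits the precision. The script was tested on simulated data.

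The genes and lists were chosen with earlier results of these data known. Named genes were the 4 members, the rest of the superfamily on the array, the genes called in each related list (or the 3 of smallest p), and the 5 nearest in profile to a member whose group means ranged over more than 1 (log2). Ctsl, Foxc1 and Sema3e were added later. Alternatives were quantile normalization, median centring, a floor of 16, other detection filters, the mean of probe sets, all probe sets, no variance trend, a replicate block, only the 4 arrays compared, and fits with arrays left out. Whether replicate numbers pair the arrays was checked by the correlation of deviations from group means. It was 0.448 between 16 dpc ventral and 16 dpc dorsal arrays, 0.00688 between 16 dpc ventral and virgin ventral arrays and 0.0289 between 16 dpc dorsal and virgin ventral arrays. The main fit did not use the numbers as pairs. It thus leaves out a pairing that the 2 groups of pregnant mice may have. The replicate block is the alternative that takes the numbers into the fit. Promoter windows came from RefSeq.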

Additional observations from a re-analysis of the deposited data

How the results depend on the processing

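Tgm3 kept its direction in every fit run, and its log2 changes of 1.55 (over virgin ventral cells) and 2.30 (over 16 dpc dorsal cells) stayed past the threshold under quantile normalization, median centring, a floor of 16, no filter and present calls on all 6 arrays. When a gene's probe sets were averaged the changes were 1.38 (limma adjusted p = 0.104) and 1.98 (0.0627). With all detected probe sets they were 1.55 (0.206) and 2.30 (0.136), and with no trend of the variance 1.55 (0.161) and 2.30 (0.125). With only the 4 arrays compared the change over 16 dpc dorsal cells was 2.30 (0.0529). Over the fits that leave out 1 array they ranged from 1.51 to 1.60 (adjusted p 0.00537 to 0.223) and from 1.996 to 2.598 (0.000590 to 0.0664), and the values with a lost call from 1.51 to 1.60 and from 2.30 to 2.35. Tgm1 and Tgm2 passed the threshold in none. Leaving out 1 array, Tgm1 ranged from -1.34 to -0.27 over virgin ventral cells and from -0.83 to 0.24 over 16 dpc dorsal cells. Tgm2 ranged from -1.16 to 0.66 over virgin ventral cells, from -0.80 to 1.02 over 16 dpc dorsal cells and, for 16 dpc dorsal over virgin ventral cells, from -0.95 to 0.23. Its direction turned over virgin ventral cells without 16 dpc ventral replicate 2 (0.66) and without virgin ventral replicate 2 (0.11), over 16 dpc dorsal cells without 16 dpc ventral replicate 1 (-0.80) and without 16 dpc dorsal replicate 2 (-0.48), and for 16 dpc dorsal over virgin ventral cells without 16 dpc dorsal replicate 2 (0.23) and without virgin ventral replicate 2 (0.0052). That of Tgm1 over 16 dpc dorsal cells turned to 0.24 and 0.041. Tgm5 has no value in these fits.

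The number of genes called was 22 over virgin ventral cells, 9 over 16 dpc dorsal cells and 0 for 16 dpc dorsal over virgin ventral cells. It was 5 and 0 in the first pair when probe sets were averaged, 0 and 1 with all detected probe sets, and 0 and 1 with no trend of the variance. With only the 4 arrays compared the 3 counts were 46, 0 and 12. The third count was 7 under quantile normalization, 12 under median centring and 5 with genes present on all 6 arrays. Leaving out 1 array gave 1 to 59, 0 to 7 (0 to 5 where it moved) and 0 to 33 (5 to 33 where it moved). Under a replicate block the counts were 86, 16 and 11, and Tgm3 stayed called in both main comparisons (adjusted p = 0.0172 and 0.00297). No other call on a transglutaminase changed with the block. In fits chosen after seeing the data, with both 16 dpc arrays of replicate 2 left out, the counts were 115, 24 and 62, Tgm3 stayed called (1.51 and 1.95), and Tgm2 turned to 0.66 over virgin ventral cells and 0.23 for 16 dpc dorsal over virgin ventral cells. The cause of these changes was not tested. A gene called absent on every array of a group, as Tgm5 was in both groups of pregnant mice, has only a bound there.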
